A study of Mus musculus with 12 samples.

Results

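Levels of 10 genes of the early response to cell stress and axon injury were read in sensory-neuron fractions of mouse ganglia: Fos, Fosb, Fosl2, Jun, Junb, Jund, Atf3, Egr1, Ier5 and Sprr1a. These genes were chosen by symbol, as genes that tissue dissociation can induce, and with earlier results of these data known. All 10 were found among the 22609 genes that each of the 12 count files lists. The series holds 3 RNA-seq libraries each of female dorsal root ganglia (DRG), male DRG, female trigeminal ganglia (TG) and male TG, from naive wild-type (Wt) mice labelled as strain C57BL and age 3 to 4 months. The study's methods name the strain C57BL/6J and give a younger age. Females were in the estrous phase, according to the study's methods. All ganglia were broken up with enzymes into single cells and enriched for sensory neurons on a Percoll density gradient, and total RNA was freed of ribosomal RNA before sequencing. Every library came from dissociated cells, and no undissociated sample was analysed here, so the levels below cannot be split into what the cells carried in the animal and what arose during preparation. The labels do not say that the libraries of a group come from separate animals or pools, nor whether TG and DRG libraries share animals, so p-values measure the spread between these libraries.

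AP-1 is a transcription factor made of a pair of leucine-zipper proteins, a Jun protein with a Fos protein or with a second Jun protein. Many of its genes belong to the immediate early genes. These are transcribed within minutes of calcium entry, growth factor signals or stress without new protein synthesis, and their mRNAs are short-lived. In sensory neurons, Jun, Atf3 and Sprr1a also form the slower response to a cut axon, in which they stay on during regrowth.

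On the mm9 build that the counts were made on, the genes lie as follows: Fos at chr12:86814840-86818223, Fosb at chr7:19888070-19895394, Fosl2 at chr5:32438845-32460204, Jun at chr4:94715725-94718913, Junb at chr8:87500811-87502617, Jund at chr8:73221638-73224515, Atf3 at chr1:192994175-193007219, Ier5 at chr1:156943497-156946766 and Sprr1a at chr3:92287877-92289816. Jun, Junb, Jund and Ier5 have 1 exon each, Egr1 and Sprr1a 2, and Fos, Fosb, Fosl2 and Atf3 4. Counts cover all exons of a gene.

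Reads in genes ranged from 7511765 to 15396090 per library. The lowest level that 3 counts can show therefore lay between 0.195 and 0.399 CPM, which covers counting error only. CPM is the count of a gene relative to all reads in genes of its library, brought to a common total; levels are given as CPM scaled by TMM, a factor that evens out libraries on the bulk of their genes. Defining markers of sensory neurons were all present in every group, as were those of satellite glia, myelinating Schwann cells, fibroblasts, endothelium and mural cells, so the fractions also held RNA of other ganglion cells. In such bulk fractions, fewer cells of a type and less RNA per cell cannot be told apart. Reads outside annotated genes made up 46.4% to 50.4% of the reads in and outside genes in female DRG, 38.2% to 42.6% in male DRG, 43.5% to 49.1% in female TG and 37.6% to 47.9% in male TG.

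Per kilobase of exon, the scale on which genes can be compared, Fos was the most abundant of the 10 genes. Its level was 68.2 ± 25.7 CPM per kilobase (SD, n = 12 libraries), at a mean percentile of 94.3 among the 17114 annotated genes with any read. Fos was above Jun in 12 of 12 libraries, and Jun followed with 32.3 ± 14.6 CPM per kilobase. Egr1, a zinc-finger factor induced together with Fos, had 25.3 ± 15.9 CPM per kilobase, Junb 19.0 ± 11.7, Atf3 16.2 ± 5.81 and Fosb 15.3 ± 7.21. From Jun down to Fosb, neighbours in this order differed by less than the larger of their SDs, whereas Fosb was above the next gene, Jund, by more than that. The lower tier held Jund at 7.15 ± 2.47, Fosl2 at 6.20 ± 3.22 and Ier5 at 3.01 ± 1.63 CPM per kilobase. Jund is the Jun protein of resting cells, Fosl2 encodes the Fos protein Fra-2, and Ier5 encodes an early response protein that acts with heat shock factor. Even so, Ier5 was counted in every library, with 27 to 192 reads, and Fos with 669 to 3085 reads.

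**Figure D1:**
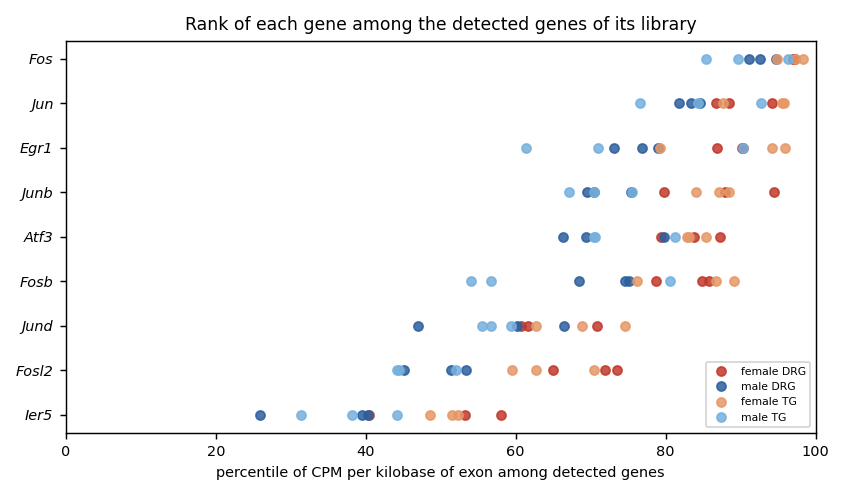
Percentile of each gene's CPM per kilobase of exon among the 17114 annotated genes with any read in the series, 1 point per library, coloured by group. Fos lay between 85.4 and 98.4 in the 12 libraries and Ier5 between 25.8 and 58.1, and the female and male points overlap for each gene drawn except Fosl2 and Junb. Sprr1a, at 0 in 11 libraries, is not drawn.

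Sprr1a stood apart from the other 9. It encodes a small proline-rich protein of the cornified envelope of skin, and is switched on strongly in axotomized sensory neurons, where it takes part in axon outgrowth. It was listed at 0 counts in 11 libraries, which allows a level of up to 0.195 to 0.399 CPM, and had 28 counts (2.25 CPM) in female TG 2. It did not pass the filter on low counts and was not tested. Fosl1, the Fos family gene for Fra-1, was similar in that it had 26 counts in female TG 3, 2 counts in female TG 2 and 0 in the other 10 libraries. Atf3, whose induction is the usual mark of an injured sensory neuron, was present throughout with 178 to 640 counts. Reads of Atf3 were thus found in 12 of 12 libraries and reads of Sprr1a in 1.

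Promoter windows of 9 of the 10 genes were found in RefSeq (GRCm38.p6), each running from 250 bases before the start of transcription to 50 bases after it. Egr1 had no entry. The windows were searched on both strands for the letters that the early response is known to be read from: the cAMP response element TGACGTCA, its 6-base part TGACGT (which every full element also contains), the AP-1 site TGACTCA, the Egr1 site GCGGGGGCG, and the CArG box of serum response factor by its name. Fos and Atf3 held TGACGT, a match found in 7.51% of the 32851 promoters of this length. In Atf3 it lay on the strand opposite to the gene, so that it reads ACGTCA along the gene. Fosb and Fosl2 held GCGGGGGCG (2.91% of promoters). Sprr1a held the AP-1 site in 2 places, both on the strand opposite to the gene (5.2% of promoters). None of the 9 windows held a full cAMP response element (1.79% of promoters) or a CArG box (1.63%). A match is a string of letters and no measured site, and a window without one says nothing of the factor. The 250 bases before the start are shown for 4 genes, 5′ to 3′ along the gene, because they hold these matches and include Fos, the highest, and Sprr1a, the lowest of the 10; capitals mark the matched letters, which begin 66 bases before the start in Fos, 79 in Fosl2, 8 in Atf3, and 146 and 116 in Sprr1a.
Fos (chr12:85473640-85473889, plus strand): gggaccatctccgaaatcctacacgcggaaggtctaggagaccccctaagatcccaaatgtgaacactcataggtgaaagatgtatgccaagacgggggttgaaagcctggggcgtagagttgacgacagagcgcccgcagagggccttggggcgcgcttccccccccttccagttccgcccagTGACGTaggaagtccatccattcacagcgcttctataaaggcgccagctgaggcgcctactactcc
Fosl2 (chr5:32136222-32136471, plus strand): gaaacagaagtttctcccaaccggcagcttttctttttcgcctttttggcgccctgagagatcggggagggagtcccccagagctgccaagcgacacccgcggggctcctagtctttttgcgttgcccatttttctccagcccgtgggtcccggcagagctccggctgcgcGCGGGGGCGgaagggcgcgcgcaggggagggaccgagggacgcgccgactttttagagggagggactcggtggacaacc
Atf3 (chr1:191183334-191183583, minus strand): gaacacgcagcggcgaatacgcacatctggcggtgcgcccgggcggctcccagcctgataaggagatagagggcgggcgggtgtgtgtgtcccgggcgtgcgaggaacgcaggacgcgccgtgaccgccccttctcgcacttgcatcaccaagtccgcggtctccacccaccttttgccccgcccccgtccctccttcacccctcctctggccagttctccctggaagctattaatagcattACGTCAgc
Sprr1a (chr3:92485882-92486131, minus strand): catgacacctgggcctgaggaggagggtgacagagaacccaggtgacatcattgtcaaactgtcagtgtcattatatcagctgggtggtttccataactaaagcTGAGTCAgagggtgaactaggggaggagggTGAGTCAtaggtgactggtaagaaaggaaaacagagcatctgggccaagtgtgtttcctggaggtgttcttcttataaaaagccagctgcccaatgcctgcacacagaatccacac

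The main comparison of the study asked which genes differ between females and males in each ganglion. Its criteria for a differentially expressed gene (DEG) were a fold change (FC) above 2, an unadjusted p (Pval) under 0.05 and a minimum level, set here at a mean of 1 CPM in the higher sex. Log2 FC is female over male, so positive values are higher in females. In both ganglia the 9 tested genes had higher means in females than in males, whereas 38.8% of the genes tested in both ganglia did so. Because the genes were chosen with earlier results of these data known, shares of all genes, here and below, describe the set and do not test it. The plot of levels by library shows this as female points above most of the male ones, with the gap widest for Fosl2 and Junb. Within a single ganglion edgeR gave 0 of the 9 genes an adjusted p under 0.05, and 0% of all genes once the X- and Y-linked genes that tell the sexes apart are left out. Every edgeR difference within a ganglion therefore rests on unadjusted p-values. Adjusted p-values of DESeq2, which differed, are given below.

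**Figure D2:**
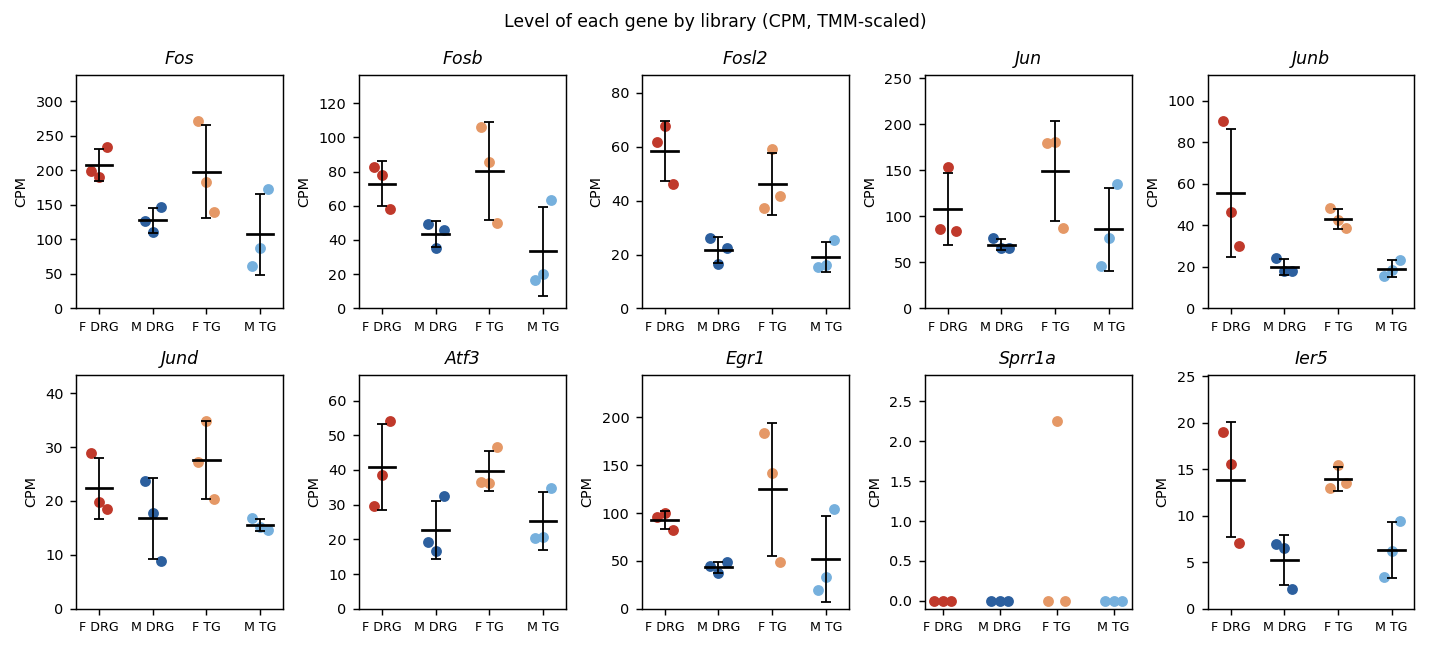
Level of the 10 genes in CPM (TMM-scaled) in the 12 libraries, 1 panel per gene with its own scale. Points are libraries 1, 2 and 3 of a group from left to right, F is female and M male, and bars are the mean and SD of 3 libraries (none for Sprr1a). Fosl2 was 37.5 to 67.6 CPM in the 6 female and 15.6 to 26.1 CPM in the 6 male libraries, without overlap.

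In TG, 5 of the 9 genes were female-selective DEGs by these criteria: Fosl2, Junb, Fosb, Egr1 and Ier5 (5.14% of all 14004 genes tested met them with higher levels in females). Fosl2 was at 37.5, 59.1 and 41.8 CPM in the female TG libraries and at 15.6, 16.2 and 25.3 CPM in the male ones. The lowest female library was above the highest male library. Its log2 FC was 1.33 ± 0.31 (SE, 3 against 3 libraries; Pval = 0.0012, adjusted p = 0.154 in edgeR). Junb, whose protein competes with Jun for Fos partners, was at 48.1, 42.4 and 38.5 CPM in females and 15.5, 18.7 and 23.3 CPM in males, again without overlap. Its log2 FC was 1.21 ± 0.27 (Pval = 0.00086, adjusted p = 0.154 in edgeR). Ier5 did not overlap either, at 13.0, 15.4 and 13.5 CPM in females and 3.37, 6.21 and 9.43 CPM in males (log2 FC 1.19 ± 0.43, Pval = 0.0176).

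Fosb and Egr1 met the criteria with overlapping libraries. Egr1 was at 184, 142 and 48.5 CPM in female TG and 19.9, 33.0 and 103.7 CPM in male TG, so that female TG 3 lay below male TG 3. Its log2 FC of 1.31 had the widest error of the 9 genes, 0.59 (Pval = 0.0485 in edgeR, 0.135 in DESeq2). Fosb, a Fos protein with lasting forms in stimulated neurons, had the same order, with 105.9, 85.5 and 49.6 CPM in females and 16.8, 19.9 and 63.6 CPM in males (log2 FC 1.32 ± 0.48, Pval = 0.0198). In both genes the overlap came from the libraries numbered 3.

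The other 4 genes did not reach a 2-fold difference in TG. Fos was at 271, 184 and 139.9 CPM in females and 60.9, 87.8 and 173 CPM in males (log2 FC 0.94 ± 0.38, Pval = 0.0317). Jun, the AP-1 subunit that is activated by the stress kinase JNK, was at 180.1, 181 and 87.1 CPM in females and 46.0, 76.5 and 135 CPM in males (log2 FC 0.85 ± 0.40, Pval = 0.0557). For Fos and Jun, too, the female library numbered 3 was below the male one. Jund (log2 FC 0.87 ± 0.30, Pval = 0.0143) and Atf3 (0.70 ± 0.29, Pval = 0.0355) did not overlap, with Atf3 at 36.2 to 46.5 CPM in females and 20.3 to 34.9 CPM in males. In total 8 of the 9 genes had Pval under 0.05 (10.9% of all genes, higher in females) and 5 did not overlap (12.3%). Their adjusted p-values ran from 0.154 to 0.252 in edgeR, and with DESeq2 2 of the 9, Fosl2 and Junb, had an adjusted p under 0.05 (2.63% of all genes, higher in females).

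In DRG, 4 genes were female-selective DEGs: Fosl2, Junb, Egr1 and Ier5 (2.01% of all 13958 genes tested, higher in females). Fosl2 was at 61.7, 67.6 and 46.1 CPM in female DRG and 26.1, 16.6 and 22.4 CPM in male DRG, with no overlap (log2 FC 1.43 ± 0.32, Pval = 0.00076, adjusted p = 0.307 in edgeR). Junb was at 90.0, 46.6 and 30.0 CPM in females and 24.2, 17.8 and 17.9 CPM in males. The female values spread 3.00-fold, with female DRG 1 far above the rest, yet all were above the males (log2 FC 1.49 ± 0.41, Pval = 0.0032). Egr1 was tight within each sex here, at 95.6, 100.3 and 82.6 CPM in females and 44.9, 37.1 and 48.4 CPM in males (log2 FC 1.10 ± 0.28, Pval = 0.0018). Ier5 was at 19.0, 15.6 and 7.03 CPM in females and 6.91, 6.57 and 2.13 CPM in males, its lowest female library just above the highest male one (log2 FC 1.44 ± 0.61, Pval = 0.0357).

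Fos and Fosb were also higher in every female than in every male DRG library, by less than 2-fold. Fos was at 199.9, 191 and 234 CPM in females and 127, 110.4 and 146 CPM in males (log2 FC 0.70 ± 0.26, Pval = 0.0199). Fosb was at 82.9, 77.8 and 58.3 CPM in females and 49.4, 35.1 and 46.0 CPM in males (log2 FC 0.75 ± 0.30, Pval = 0.0252). Jun (log2 FC 0.64 ± 0.30, Pval = 0.0545) did not overlap between the sexes, although its female DRG 2 value of 153 CPM was well above the 86.0 and 84.5 CPM of the other females. Atf3 overlapped, with 29.6, 38.6 and 54.2 CPM in females and 19.2, 16.7 and 32.4 CPM in males (log2 FC 0.83 ± 0.38, Pval = 0.0476). Jund, at 18.5 to 28.9 CPM in females and 8.82 to 23.7 CPM in males, had the smallest difference (log2 FC 0.43 ± 0.42, Pval = 0.326). In total 7 of the 9 genes had Pval under 0.05 (3.84% of all genes, higher in females) and 7 did not overlap (7.46%). Adjusted p-values ran from 0.307 to 0.742 in edgeR. With DESeq2 3 of the 9, Fosl2, Junb and Egr1, had an adjusted p under 0.05 (0.294% of all genes, higher in females). DESeq2 gave no adjusted p for Ier5 and Jund in DRG.

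Fosl2, Junb, Egr1 and Ier5 met the criteria in both ganglia, as did 0.693% of the 13563 genes tested in both, and 7 of the 9 had Pval under 0.05 in both, as did 1.73%. Jun and Jund did not. In the model of all 12 libraries, which averages the sex difference over TG and DRG, 5 genes were higher in females at an adjusted p under 0.05 in edgeR, beside 2.38% of all 14824 genes. With 1 library left out, 0 of the 9 passed in edgeR without female TG 2, male DRG 2, male TG 1 or male TG 2. Of all genes, 1 passed in each of these fits, in either direction. Pval was under 0.05 for 8 or 9 of the 9 in each case. Of the 15176 to 15238 genes tested, 1160, 1460, 1186 and 1358 had Pval under 0.05 and were higher in females, in that order. With all 12 libraries, the 5 that passed were Fosl2 (log2 FC 1.35 ± 0.22, adjusted p = 0.0132), Junb (1.32 ± 0.25, adjusted p = 0.0181), Fosb (1.01 ± 0.29, adjusted p = 0.0447), Egr1 (1.18 ± 0.34, adjusted p = 0.0453) and Fos (0.79 ± 0.23, adjusted p = 0.0469). Fosl2 and Junb were the 2 genes of the 9 whose 6 female libraries all lay above the 6 male libraries (1.05% of all genes). Ier5 had as large a difference with more error (1.28 ± 0.39, adjusted p = 0.0506). Atf3 (0.75 ± 0.24, adjusted p = 0.0617), Jun (0.72 ± 0.26, adjusted p = 0.0862) and Jund (0.62 ± 0.27, adjusted p = 0.148) did not pass. The plot of log2 FC shows that the differences were of like size in the 2 ganglia for Fosl2, and that the errors in TG were widest for Egr1.

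**Figure D3:**
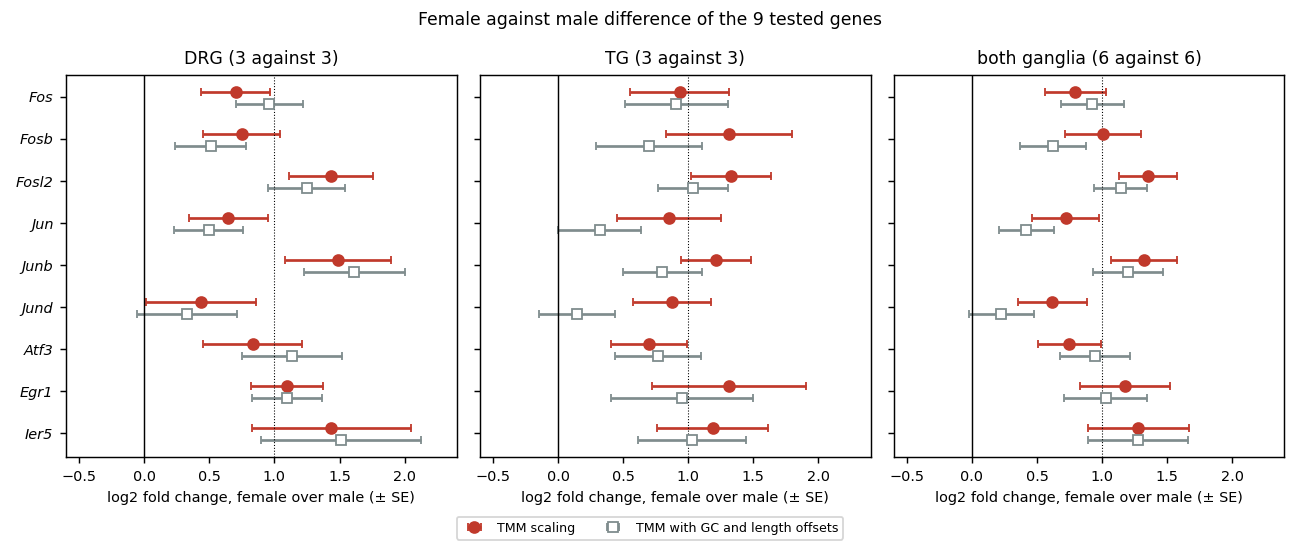
Log2 FC of females over males for the 9 tested genes in DRG, in TG and averaged over both ganglia; points are fitted values and bars their SE. Filled circles are the edgeR fit with TMM scaling and open squares the same fit after offsets for GC content and exon length. All points lie right of 0, and the dotted line marks the 2-fold level. Jund in TG moves from 0.87 to 0.15 with the offsets.

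The size of these values moved when the GC content and length of the transcripts were taken into account. All 10 genes are above the median GC content of the tested genes (49.9%), from 51.9% in Fosl2 to 62.7% in Jund, and the 4 genes with 1 exon compare with 3.45% of tested genes. After offsets for GC content and length, the TG difference of Jund was 0.15 (Pval = 0.623) and that of Jun 0.32 (Pval = 0.341). Fosb (0.70, Pval = 0.117) and Egr1 (0.95, Pval = 0.11) lost their Pval under 0.05. Junb fell below 2-fold in TG (0.80, Pval = 0.0246 in edgeR) and was no longer a DEG there. Fosl2 and Ier5 remained DEGs in TG (1.4% of all genes). In DRG, Fosl2, Junb, Egr1 and Ier5 remained DEGs and Atf3 joined them, at 1.13 (2.23% of all genes). Averaged over both ganglia, Fosl2 alone passed (adjusted p = 0.0429 in edgeR, 0.0548% of all genes). The direction, higher in females, held for all 9 genes in every one of these fits.

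Single libraries weighed heavily on the TG values. Male TG 3 had the highest male TG level of Fos, Fosb, Fosl2, Jun, Junb, Egr1, Atf3 and Ier5, and the lowest of Jund. Of the male libraries it also had the largest share of reads outside genes (47.9%), the lowest summed level of the 11 sensory neuron markers (7273 CPM, against 9011 and 9389 CPM in the other male TG libraries) and, within male TG, the highest sum of 5 fibroblast markers (1261 CPM, against 586 and 723 CPM). Female TG 3 was its counterpart. It had the lowest female TG level of Fos, Fosb, Jun, Egr1, Junb and Jund, the smallest share outside genes of the female libraries (43.5%), the highest neuron marker sum in female TG (9145 CPM) and the lowest fibroblast sum there (969 CPM). Atf3, however, was highest in female TG 3 (46.5 CPM, against 36.5 and 36.2 CPM). Of female DRG, female DRG 3 had the highest neuron marker sum (11751 CPM), the lowest fibroblast sum (1282 CPM) and the smallest share outside genes (46.4%). Its Fos (234 CPM) and Atf3 (54.2 CPM) were the highest of female DRG, and its Fosb, Fosl2, Jun, Junb, Jund, Egr1 and Ier5 the lowest. The part of these properties in the levels was not tested. Without male TG 3, 8 of the 9 genes met the criteria in TG (7.04% of all genes, higher in females), with log2 FC of 2.30 for Egr1 and 2.19 for Fosb. Without female TG 3, 7 did (9.04%), and 6 of the 9 had an adjusted p under 0.05 in edgeR (10.8%). Leaving out any other TG library lowered the count, to 2 without male TG 1 (3.08%) and to 3 without female TG 1 (2.98%), female TG 2 (2.14%) or male TG 2 (4.32%).

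**Figure D4:**
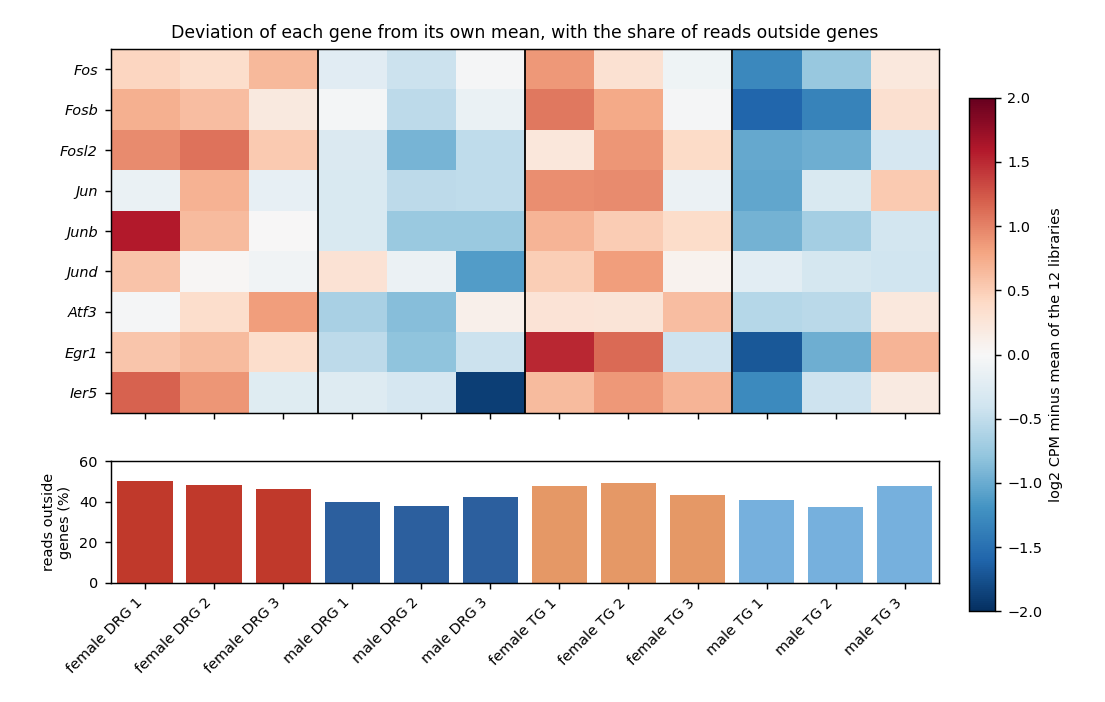
Upper panel, log2 CPM of the 9 tested genes in each library minus the gene's mean over the 12 libraries (red above, blue below). Lower panel, reads outside annotated genes as a percent of the reads in and outside genes. Male TG 3, with 47.9%, is above the mean in 6 of the 9 rows, and female TG 3, with 43.5%, is the lowest female TG column for Fos, Jun and Egr1.

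Levels of the 9 genes were not distinguishable between TG and DRG. Log2 FC of TG over DRG ran from -0.27 ± 0.22 for Fosl2 to 0.39 ± 0.26 for Jun. After adjustment 0 of the 9 passed at 0.05 in edgeR (0.964% of all genes did) or in DESeq2, and 0 had Pval under 0.05 in edgeR (8.83%). Adjusted p-values were 0.787 for Jun and higher for the other 8. Egr1 had means of 88.6 CPM in TG and 68.2 CPM in DRG, and its 6 TG libraries ran from 19.9 to 184 CPM, on both sides of all DRG values. The sex difference also did not differ detectably between the ganglia. The interaction term ranged from -0.31 ± 0.50 for Junb to 0.52 ± 0.58 for Fosb (Pval from 0.381 to 0.811). Of the 9, 0 had Pval under 0.05 for this term, beside 292 (1.97%) of all 14829 genes, and after adjustment 0% of genes passed at 0.05 in edgeR, with 0 in DESeq2 too. With SE from 0.44 for Fosl2 to 0.76 for Ier5, an interval of 2 SE to either side of this term reached past a 2-fold difference between the ganglia for all 9 genes.

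Within groups, the 9 genes varied unequally. The SD of log2 CPM within groups was 0.80 for Egr1, larger than in 99.3% of 1000 genes of like level, and 0.62 for Fosb, larger than in 92.4%. For Ier5 it was 0.70 (59.9%), for Jun 0.55 (90.8%) and for Fos 0.47 (81.8%). The spread of Fosl2 was 0.34, with 28.3% of genes of like level below it, and the median of all tested genes was 0.52. Egr1, Fosb, Jun and Fos varied most in TG, where the SD in male TG was 1.21 for Egr1 and 1.04 for Fosb, while in DRG the SD of Egr1 was 0.15 in females and 0.20 in males. Junb was the reverse in females, at 0.80 in DRG and 0.16 in TG.

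Some of the genes moved together across libraries. Over the 12 libraries, which share depth, sex and ganglion with each other in all genes, Pearson's r of log2 CPM was 0.943 for Fos with Fosb, 0.941 for Fosb with Egr1, 0.927 for Fos with Egr1 and 0.915 for Jun with Egr1. It was 0.892 for Fosl2 with Junb, 0.809 for Fosb with Jun and 0.750 for Fos with Jun. The other end of the 36 pairs was Jund with Atf3 at 0.116 and Fos with Jund at 0.381. Among 14828 genes, those most like Fos were Ngfr (0.954), Susd2 (0.954), Fosb (0.943), Socs3 (0.931) and Egr1 (0.927), so that 2 of the 5 were among the 10 genes chosen. Ngfr encodes the low-affinity neurotrophin receptor and Socs3 a feedback inhibitor of cytokine signalling. Atf3 had other company: Klf9 (0.940), Ewsr1 (0.935), Hp1bp3 (0.933), Hnrnpu (0.931) and Ezh1 (0.929). Klf9 encodes a zinc-finger factor, Ewsr1 and Hnrnpu RNA-binding proteins, Hp1bp3 a chromatin protein and Ezh1 a histone methyltransferase. Fos stood in place 316 of the genes most like Atf3.

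Other immediate early genes were, for the most part, also higher in females. Their list, too, was chosen with earlier results of these data known. Of 38 on a list, 36 were tested in each ganglion, with median log2 FC of 0.77 in TG and 0.59 in DRG, beside 0.05 and 0.02 for all genes and 1.19 and 0.83 for the 9 genes above. In TG, 31 had a positive log2 FC, and 12 had Pval under 0.05 in that direction (10.9% of all genes) and 1 in the other. In DRG, 30 had a positive log2 FC, and Pval was under 0.05 for 10 of them (3.84% of all genes) and for 0 of the rest. Of these, 8 met the DEG criteria in TG (5.14% of all genes) and 8 in DRG (2.01%). Nr4a1, the orphan nuclear receptor Nur77, was at 102.5 ± 38.8 CPM in female TG and 49.97 ± 7.73 CPM in male TG (log2 FC 1.09 ± 0.32, Pval = 0.00557; SD, n = 3). Zfp36, whose protein hastens decay of early mRNAs, was at 91.6 ± 9.54 CPM in female DRG and 42.9 ± 7.03 CPM in male DRG (1.10 ± 0.28, Pval = 0.00206). Averaged over both ganglia, 6 of 37 were higher in females at an adjusted p under 0.05 in edgeR (2.38% of all genes) and 0 lower, with the smallest p for Nr4a1 (adjusted p = 0.0203), Zfp36 (0.0203), Klf2 (0.0236) and Ctgf (0.0414).

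Relatives of AP-1 in the wider leucine-zipper family had medians closer to 0. Of 21 partners and relatives of AP-1, 17 were tested, with median log2 FC of 0.44 in TG and 0.13 in DRG. In TG 1 of the 17, the small Maf protein gene Mafk, met the criteria (log2 FC 1.10 ± 0.43, Pval = 0.0271), near the 5.14% of all genes that did so, and 0 did in DRG, where 0 also had Pval under 0.05 in edgeR. The 18 heat shock and stress genes had medians of 0.04 and 0.12. In that list 1 gene, Hspa1b, met the criteria in TG (1.06 ± 0.40, beside 5.14% of all genes), and Hspa1a (1.54 ± 0.45) and Hspa1b (1.44 ± 0.35) did in DRG (2.01%). These 2 stress-inducible chaperone genes are near-identical copies, between which reads may be split or lost, so their separate values are uncertain.

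Genes of the later response to nerve injury had medians below 0. Of 27 listed, 21 were tested in TG and 20 in DRG, with median log2 FC of -0.17 and -0.06. In TG Csf1, the microglial growth factor released by injured sensory neurons, was higher in females (1.05 ± 0.47, Pval = 0.048), and Stmn4 (-1.06 ± 0.31, Pval = 0.00566) and Vip (-4.51 ± 1.74, Pval = 0.0245) were lower. Vip encodes a neuropeptide, and its value rested on 149 and 179 CPM in 2 of the male TG libraries, beside 0.138 CPM in the other. In DRG the neuropeptide gene Nts was lower in females (-2.68 ± 1.05, Pval = 0.0246), at 0 to 4.74 CPM against 6.63 to 15.9 CPM in males. Adjusted p-values in edgeR were 0.238 for Csf1, 0.155 for Stmn4, 0.196 for Vip and 0.363 for Nts. By the DEG criteria, 1 gene of this list was higher and 2 were lower in TG, beside 7.38% of all genes in either direction. In DRG 0 were higher and 1 was lower, beside 4.94%. Gap43, Gal and Sox11, usual marks of regrowing axons that the naming rule did not pick and that were added after their values were seen, were present in all 4 groups. Gadd45a, Npy and Il6 were added in the same way, and Gadd45a was present in all 4 groups too. Npy had 0 counts in female DRG and female TG, and reached 0.467 CPM in male DRG and 0.982 CPM in male TG. Il6 ran from 0 to 7.37 CPM in female DRG and from 0 to 2.37 CPM in female TG. In males Il6 had 6 to 33 counts in DRG and 5 to 70 in TG. Gap43 was at 67.9 ± 52.1 CPM in female and 68.8 ± 46.2 CPM in male DRG, and at 49.97 ± 40.8 CPM in female and 52.6 ± 11.5 CPM in male TG. Gal was at 19.5 ± 8.54 and 22.5 ± 5.61 CPM in DRG, and 14.7 ± 6.54 and 17.8 ± 8.69 CPM in TG. Sox11 was at 17.8 ± 7.65 and 9.69 ± 1.80 CPM in DRG, and 12.7 ± 0.994 and 9.39 ± 1.99 CPM in TG, females first.

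**Figure D5:**
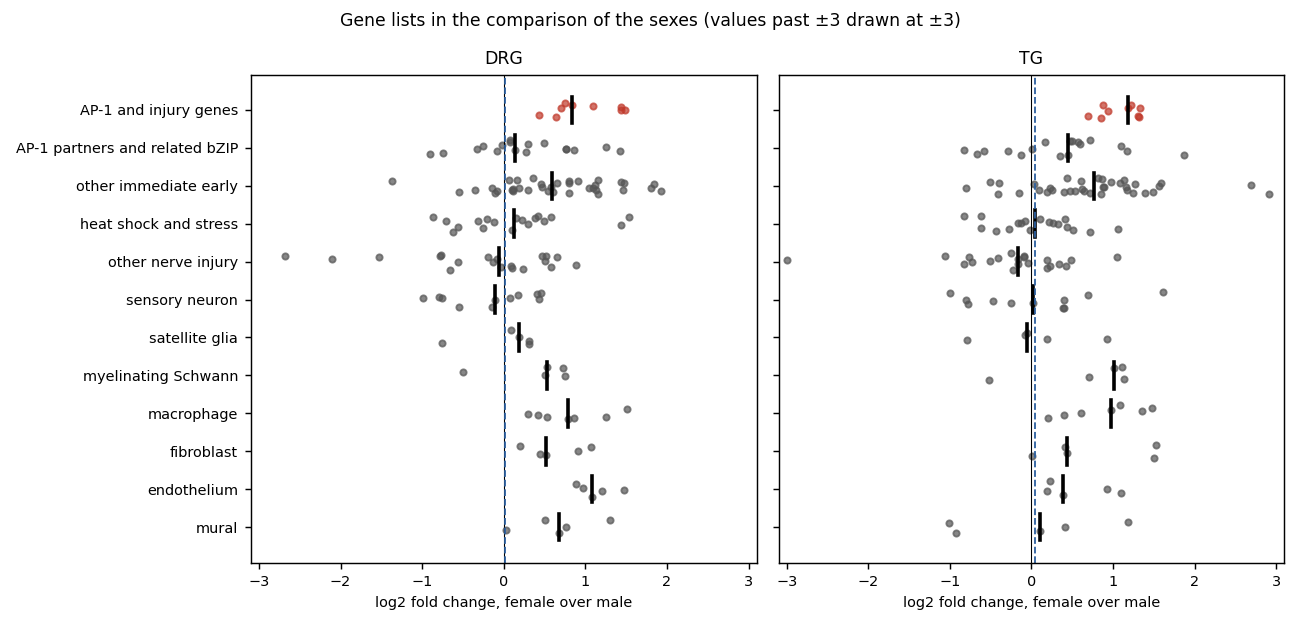
Log2 FC of females over males for each tested gene of the lists, in DRG (left) and TG (right), 1 point per gene; thick lines are list medians and the dashed line is the median of all tested genes. All 9 AP-1 and injury genes lie above 0, other immediate early genes have medians of 0.59 and 0.77, and markers of macrophages, fibroblasts and endothelium lie to the right of 0 in both ganglia.

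Markers of some other cell types were higher in females, as these genes were, and those of others were not. All 7 macrophage, 5 fibroblast and 5 endothelial markers had higher fitted levels in females in both ganglia, with median log2 FC of 0.98, 0.44 and 0.38 in TG and 0.79, 0.52 and 1.08 in DRG. Summed macrophage markers ran from 206 to 415 CPM in female TG and from 86.4 to 215 CPM in male TG, which overlap by female TG 3 and male TG 3. Summed endothelial markers ran from 198 to 430 CPM in female DRG and from 129 to 224 CPM in male DRG. The 11 sensory neuron markers had medians of 0.02 in TG and -0.11 in DRG, and their sums were 7137 to 11751 CPM in female DRG, 10836 to 12385 CPM in male DRG, 6390 to 9145 CPM in female TG and 7273 to 9389 CPM in male TG. Myelinating Schwann markers had medians of 1.01 in TG and 0.53 in DRG, with 4 of 5 higher in females, whereas those of satellite glia were at -0.06 and 0.19 and mural markers at 0.11 and 0.68. The summed Schwann markers differed little, with means of 2295 and 2120 CPM in TG and 2281 and 2328 CPM in DRG, females first. Satellite glia sums had means of 1625 and 2040 CPM in TG and 1634 and 1927 CPM in DRG, in the same order. Blood cell markers were the other way round. The 3 tested neutrophil markers had negative log2 FC in both ganglia (medians -1.58 in TG and -1.004 in DRG), with sums of 0.0803 to 40.9 CPM in females and 6.38 to 102 CPM in males. Of the T cell and erythroid markers 1 each passed the filter, Lck (-0.32 in TG, -3.57 in DRG) and Alas2 (-1.04 in TG, -0.65 in DRG). As lower in females, Lck met the criteria in DRG, as did 409 of all 13958 genes, and Alas2 in TG, as did 313 of all 14004. These markers were low. T cell sums were 0.508 to 3.33 CPM in female DRG and 4.18 to 7.19 CPM in male DRG. Erythroid sums were 4.40 to 7.01 CPM in female TG and 8.25 to 20.0 CPM in male TG. The part of these cell types in the differences of Fos, Jun and the other genes was not tested.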

How the data were processed

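RNA-seq libraries of Percoll-enriched fractions of DRG and TG (3 per sex and ganglion) were grouped by their titles. The authors sequenced stranded, ribosome-depleted total RNA and aligned reads to mm9 with TopHat2. The deposited files hold raw counts per gene symbol from HTSeq, without normalization, and 5 summary lines that are no genes; their strand setting is not given in the sources used here. Jun, Jund and Egr1 overlap annotated genes of the opposite strand, which could take or add reads. Lengths and GC contents came from GENCODE on the same build (NCBIM37), which matched 21627 symbols (95.7%).

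Genes were kept by filterByExpr, scaled by TMM and tested with the quasi-likelihood test of edgeR 4.0.16 in R 4.3.3, with 6 libraries per ganglion, or 12 libraries and 4 group means for averages, TG against DRG and the interaction. P-values are two-sided, unadjusted as Pval, or Benjamini-Hochberg adjusted over all tested genes. Counts of genes in the comparisons of the sexes leave out 6 X- or Y-linked genes that mark sex, such as Xist and Ddx3y. Counts for TG against DRG and for the interaction keep them, and p-values were adjusted with them included. SE is the log2 FC over the root of its F statistic. Log2 CPM used a prior count of 2. Alternatives were DESeq2 1.42.0, library totals, upper quartile, no filter, offsets for GC content and length (splines of 5 degrees of freedom), a replicate block, and leaving out libraries. The code was tested on simulated data.

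The 10 genes and all lists were chosen with earlier results of these data known. Other genes named were up to 4 per list and comparison with the smallest Pval among those with Pval under 0.05 and FC above 2, and the 5 most correlated with Fos and with Atf3. Total counts per library ranged from 7511765 to 15396090, and 3 counts were taken as the floor.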

Additional observations from a re-analysis of the deposited data

Results flagged for a closer look

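Of 38 sets of 6 libraries (the 10 genes in the female, male, DRG and TG libraries, where values differed), 6 held a highest or lowest library whose gap to its neighbour, as a fraction of the range, was above Dixon's critical value of 0.625. Chance flags about 1 in 20 sets only where the 6 values are independent draws from 1 normal distribution. These sets pool groups and share libraries, so the 6 flags cannot be read against that rate. Jun in DRG had a gap of 0.765, with female DRG 2 at 153 CPM and a median of 80.5 CPM. Male TG 3 stood above the other male libraries for Jun (gap 0.657, 135 CPM, median 71.2 CPM) and for Egr1 (gap 0.661, 103.7 CPM, median 41.0 CPM). Junb in females had a gap of 0.698, with female DRG 1 at 90.0 CPM and a median of 44.5 CPM. Sprr1a in TG and in females had a gap of 1, with female TG 2 at 2.25 CPM and the others at 0.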

How the results depend on the processing

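The direction of the sex difference, higher in females, held for the 9 genes in TG, in DRG and on average in every setting run. The counts of genes called did not hold as well. Genes meeting the DEG criteria in TG were 1033, and were 284 with GC and length offsets, 255 with the replicate block and those offsets, and 3491 with libraries numbered 1 and 2 only, a choice made after the data were seen; of the 9 genes 5 became 2 with the offsets and 3 with block and offsets. In DRG 689 genes became 440, 366 and 1769. At an adjusted p under 0.05 on average over the ganglia, 1164 genes became 19 with the offsets, 6 with block and offsets, 2319 with DESeq2, 5410 with libraries 1 and 2 and 2140 without female DRG 1 and female TG 3 (also chosen after the data were seen); of the 9 genes, 5 became 1 with the offsets, with or without the block, and 8 with DESeq2, library totals, no filter, and libraries 1 and 2. For TG against DRG 143 genes became 333 with DESeq2, 218 without filter, 562 with the replicate block, 515 with block and offsets, 814 with libraries 1 and 2 and 344 without those 2 female libraries. The cause of these changes was not tested.

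Leaving out 1 library at a time gave 580 to 2527 genes and 2 to 8 of the 9 in TG, 372 to 1580 and 2 to 4 in DRG, 1 to 2615 and 0 to 8 on average, and 77 to 231 and 0 for TG against DRG. On average over the ganglia, 0 of the 9 passed without female TG 2, male DRG 2, male TG 1 or male TG 2 in edgeR (8 or 9 had Pval under 0.05). Of all genes, 1 passed in each of these fits. Without female TG 1, 1 of the 9 passed (4 of all genes). It was 2 without female DRG 1 (324 of all genes), female DRG 2 (105) or male DRG 1 (26), and 4 without male DRG 3 (1513). It was 7 without female DRG 3 (2482) or female TG 3 (2615), and 8 without male TG 3 (1787). In DRG 2 of the 9 met the criteria without male DRG 2 (372 of all genes).

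For TG against DRG, where none passed, the log2 FC turned in sign without the 2 female libraries for Fosb (0.055), Junb (0.092) and Atf3 (-0.10), with offsets for Jund (-0.15; -0.13 with block and offsets), with block and offsets for Egr1 (-0.027), and with libraries 1 and 2 for Jund (-0.0085) and Ier5 (-0.38). Leaving out 1 library gave -0.55 to 0.038 for Fosb, -0.36 to 0.055 for Junb, -0.058 to 0.26 for Jund, -0.097 to 0.23 for Atf3, -0.14 to 0.54 for Egr1 and -0.049 to 0.30 for Ier5. Scaling by library totals raised the median log2 FC of all genes to 0.17 (TG) and 0.19 (DRG). Of the TG DEGs, 69.7% were higher in females, and 86.6% with library totals. Of the DRG DEGs 40.6% were, with 78.3% by library totals, 58.2% by upper quartile and 69.8% with the offsets. Deviations of libraries with like numbers correlated at -0.098 to 0.216. The negative values were between female TG and male TG, which cannot share animals. Within a sex, TG and DRG correlated at 0.028, 0.117 and 0.212 in females and 0.043, 0.117 and 0.216 in males. Female and male DRG, also from different animals, were at 0.113, 0.032 and 0.168. Positive values thus cannot show whether TG and DRG share animals. The main fits did not take the numbers as pairing and treat all libraries as independent. With the replicate block, 4 of the 9 met the criteria in TG (828 of all genes) and 4 in DRG (660). On average over the ganglia, 6 passed (1587 of all genes).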
